A study of Mus musculus with 36 samples.

Results

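Tumours of the mouse lung were compared by how strongly they expressed genes of cell division. The samples were 12 of the 18 tumours that carried the control guide sgNeo, out of 36 tumours in the series. Each of the 18 was given a score, the mean log2(CPM + 1) of Mki67, Top2a, Ccna2, Cdk1, Bub1 and Aurkb, with CPM (counts scaled to 1000000 per tumour) taken over the tumour's total count. The 6 tumours of highest score were set against the 6 of lowest score. The members were therefore selected on expression itself, and the 6 score genes are left out of every result below. All tumours were driven by the fusion oncogene EML4-ALK, which joins part of EML4 to the kinase ALK, and RNA came from neoplastic cells sorted by their EGFP. The high-score set held 3 Variant 1 and 3 Variant 3 tumours, and the low-score set likewise held 3 and 3. The labels call sgNeo tumours Setd2-proficient. They give no age, sex, strain or promoter for the mice, and no time after induction. Another 18 tumours that received sgSetd2, which the labels call Setd2-deficient, were divided by the same score for comparison. Gene IDs and coordinates are those of GENCODE mouse release 21 (GRCm38). Sample titles carry codes such as CE468, whose meaning the labels leave unsaid. Tumours of the same code may share a source, 4 codes gave tumours to both sets, and p-values below take every tumour as a separate sample.

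A dividing cell makes its transcripts in waves. Genes that license and fire replication origins are transcribed at the passage from G1 to S phase, largely through E2F factors, and genes of the mitotic spindle and its checkpoint follow in G2 and mitosis, many through promoters that join CCAAT boxes to a cell cycle homology region (CHR). The alveolar type 2 (AT2) cell, a common origin of lung adenocarcinoma, makes surfactant, a film of lipid and protein, and depends on a large output of fatty acids for it.

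The score ran from 5.76 in tumour 2 of CE472 to 1.52 in tumour 4 of CE472. The high-score set lay between 4.57 and 5.76 and the low-score set between 1.52 and 3.04. At the limits of the sets, tumour 2 of CE433 (4.57) was the last inside the high-score set and tumour 4 of CE468 (4.26) the first outside it, while tumour 3 of CE468 (3.04) was inside the low-score set and tumour 6 of CE472 (3.18) outside it. The scores thus formed a graded series with no wide gap at either limit. Cdk1, the mitotic kinase, stood at 39.0 to 89.8 CPM (median 77.3) in high-score tumours and at 4.90 to 13.6 CPM (median 8.74) in low-score tumours, and Mki67, the Ki-67 antigen, at 31.7 to 56.6 CPM against 0.423 to 14.4 CPM. Every low-score tumour still held Cdk1 and Top2a transcripts, so the data do not show that these tumours were quiescent, and the sets are called high-score and low-score here. These values chose the tumours and are a description. Total counts, in units of 1000000, were 33.3 to 67.3 in high-score tumours and 17.9 to 78.2 in low-score tumours.

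The promoters of 4 genes of the cell cycle lists show the elements named above. They are the 2 most abundant listed genes of G2 and mitosis with a CCAAT box and a CHR, and the 2 most abundant of G1 to S entry with an E2F site, in the 250 bases before the annotated start (RefSeq sequence, build GRCm38.p6). Cdc20 (chr4:118437344-118437593, minus strand) activates the anaphase-promoting complex, Prc1 (chr7:80294226-80294475, plus strand) bundles microtubules of the central spindle, Cdk2 (chr10:128705052-128705301, minus strand) is the S phase kinase and Mcm6 (chr1:128359706-128359955, minus strand) is part of the replicative helicase. In Cdc20 and Prc1 capitals mark the CCAAT box, written with those letters, and the CHR, searched as TTTGAA and also as TTCGAA. In Cdk2 and Mcm6 they mark the E2F site, searched as TTTGGCGC and also as TTTCCCGC. Both strands were searched. 
Cdc20: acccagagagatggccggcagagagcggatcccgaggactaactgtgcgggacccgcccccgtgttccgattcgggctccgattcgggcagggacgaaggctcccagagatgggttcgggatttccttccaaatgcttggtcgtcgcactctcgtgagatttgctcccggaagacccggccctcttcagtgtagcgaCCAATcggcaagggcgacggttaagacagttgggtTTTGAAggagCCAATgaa
Prc1: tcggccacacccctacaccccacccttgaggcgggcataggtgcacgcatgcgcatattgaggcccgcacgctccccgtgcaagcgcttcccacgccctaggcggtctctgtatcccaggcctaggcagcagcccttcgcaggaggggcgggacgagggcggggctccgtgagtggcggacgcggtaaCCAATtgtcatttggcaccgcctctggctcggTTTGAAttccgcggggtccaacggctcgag
Cdk2: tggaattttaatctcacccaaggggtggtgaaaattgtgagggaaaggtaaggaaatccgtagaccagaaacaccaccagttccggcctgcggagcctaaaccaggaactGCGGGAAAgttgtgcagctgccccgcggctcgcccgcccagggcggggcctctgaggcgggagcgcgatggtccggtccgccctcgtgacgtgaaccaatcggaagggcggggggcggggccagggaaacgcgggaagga
Mcm6: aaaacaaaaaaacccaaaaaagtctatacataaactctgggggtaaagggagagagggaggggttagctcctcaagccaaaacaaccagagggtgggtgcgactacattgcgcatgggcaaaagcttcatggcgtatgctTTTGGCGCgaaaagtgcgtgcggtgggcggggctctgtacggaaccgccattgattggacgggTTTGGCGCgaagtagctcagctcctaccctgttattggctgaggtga

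In windows of 300 bases (250 before the start and 50 after it), CCAAT together with TTTGAA or TTCGAA was found on either strand in 69.0% of 29 promoters of G2 and mitosis genes, against 7.52% of all 32851 mouse promoters in RefSeq. The same pair stood in 23.8% of 21 promoters of G1 to S genes and in 11.5% of 26 promoters of S phase genes. TTTGGCGC or TTTCCCGC was in 47.6% of G1 to S promoters, in 0 of the 29 G2 and mitosis promoters and in 1.56% of all promoters, while it was in 15.4% of S phase promoters and in 2.85% of the 13032 promoters of genes tested here. No motif contains another, and a match is a string of letters and not a measured site.

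Gene lists of every phase of the cycle had higher medians in the high-score tumours, that of G2 and mitosis by the most. These genes rise and fall with the score by their nature, so their values are given as a description with no test. Of 32 listed genes of G2 and mitosis (score genes left out), 31 had a positive log2 fold change and 25 had every high-score tumour above every low-score tumour, with a median log2 fold change of 2.42. Over all 14075 genes tested, 3.77% separated the sets in that direction and the median was 0.03. The 21 genes of G1 to S entry had a median of 1.57 with 5 that did not overlap, and the 23 genes of S phase a median of 1.56 with 7. Kif23, the kinesin of the central spindle, ran at 59.0 to 117 CPM (median 87.7) in high-score and 7.67 to 38.2 CPM (median 25.9) in low-score tumours. Cdc20 stood at 35.5 to 89.1 CPM (median 42.3) in high-score and 9.79 to 25.5 CPM (median 18.8) in low-score tumours. Prc1 overlapped, at 10.8 to 68.0 CPM (median 58.1) against 13.0 to 20.1 CPM (median 19.6), through tumour 2 of CE433 with 10.8 CPM.

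The genes of G1 and S phase that were most abundant differed less. Mcm7 and Mcm6, subunits of the MCM helicase, stood at 39.4 to 87.7 CPM (median 64.0) and 37.5 to 149.5 CPM (median 56.0) in high-score tumours, against 27.0 to 35.9 CPM (median 28.0) and 17.95 to 37.9 CPM (median 29.7) in low-score tumours. Mcm2 of the same helicase had a log2 fold change of 0.90. Pcna, the sliding clamp of DNA polymerase, had 0.72, Rrm1, the large subunit of ribonucleotide reductase, 1.04, and Dnmt1, which copies DNA methylation behind the fork, 0.64. Cdk2 (0.34) and Slbp, which binds histone mRNA (0.30), lay close to the median of all genes, and their sets overlapped. Pttg1, the securin, was the only listed gene of G2 and mitosis with a negative value, -0.30, at 19.0 to 47.0 CPM (median 28.2) in high-score against 32.3 to 44.7 CPM (median 36.1) in low-score tumours. Among 21 genes of DNA repair the median was 1.52. The log2 fold change came to 0.37 for the mismatch repair gene Msh6, 0.92 for the checkpoint kinase Chek2 and 0.84 for the kinase Atr.

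**Figure D1:**
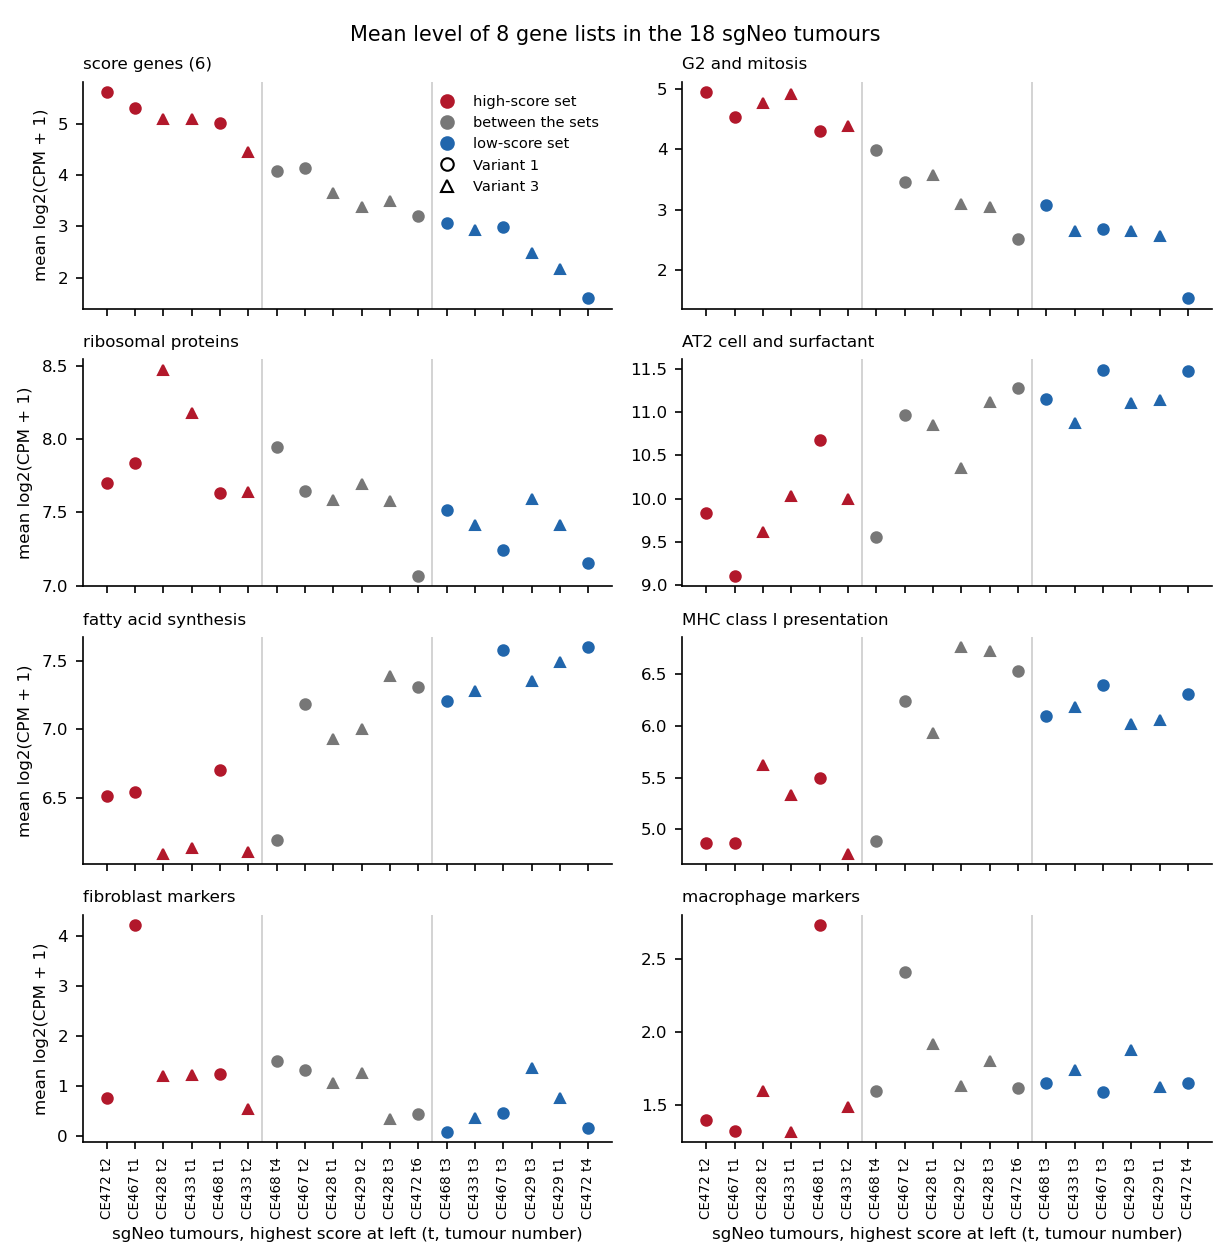
Mean log2(CPM + 1) of 8 gene lists in each of the 18 sgNeo tumours, ordered from the highest score at left, with high-score tumours in red, the 6 tumours between the sets in grey and low-score tumours in blue (circles Variant 1, triangles Variant 3). The means of the fatty acid list do not overlap between the sets (6.09 to 6.70 in high-score against 7.21 to 7.60 in low-score tumours), and tumour 1 of CE467 alone holds a high mean of fibroblast markers (4.21).

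The rest of the transcriptome differed widely with the score. Of 14075 genes tested by edgeR's quasi-likelihood test with variant as a covariate, 2106 (15.0%) passed an adjusted p of 0.05. In high-score tumours 1086 genes were higher (7.72%) and 1020 lower (7.25%), of which 490 and 332 by at least 2-fold. In 530 genes every high-score tumour lay above every low-score tumour (3.77%), and in 471 every high-score tumour lay below (3.35%). The tumours were chosen by expression, so these p-values say only that a gene moved with the score in these 12 tumours. The count fell to 706 without code CE429, to 1053 without code CE472, to 1398 without tumour 1 of CE429 and to 1371 without tumour 4 of CE472, all of them low-score tumours or codes that hold some, and 1146 of the 2106 genes were called in all 12 fits that left out 1 tumour. For each list below, the count of members called is to be read against the 7.72% higher and 7.25% lower of all genes. Members too low to be tested are left out of a list's count unless stated.

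AT2 cell genes were lower in the high-score tumours. Of 20 listed AT2 and surfactant genes, 12 fell and 0 rose, with a median log2 fold change of -1.04 against 0.03 over all genes, and in 7 of them the sets did not overlap. Napsa, the aspartic protease that processes surfactant protein B (ENSMUSG00000002204.9; GRCm38 chromosome 7, 44572380 to 44586862), stood at 59.2 to 519 CPM (median 173) in high-score tumours and at 863 to 1906 CPM (median 1807) in low-score tumours. Each of the high-score tumours lay below each of the low-score tumours, of which tumour 3 of CE433 was the lowest with 863 CPM. The log2 fold change came to -2.88 (SE 0.51, adjusted p = 0.00401). Hc, complement component C5, stood at 73.4 to 859 CPM (median 140.3) against 628 to 3319 CPM (median 1286), a log2 difference of -2.80 (SE 0.43, adjusted p = 0.0019). Its sets overlapped through tumour 1 of CE468, the highest of the high-score set at 859 CPM, and the other 5 lay below every low-score tumour.

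Chil1, a chitinase-like protein, ran at 3668 to 6057 CPM (median 4583) in high-score and 8406 to 12192 CPM (median 9615) in low-score tumours, with no overlap (log2 fold change -1.05, SE 0.14, adjusted p = 0.000914). Lamp3 of the lamellar body fell as well, at 1219 to 2706 CPM (median 1944) against 3230.3 to 5180.3 CPM (median 3808). The log2 fold change came to -1.18 (SE 0.29, adjusted p = 0.0185) for Slc34a2, the phosphate transporter, and -0.81 (SE 0.22, adjusted p = 0.0291) for Abca3, the surfactant lipid pump. Lyz2, lysozyme, stood at 367 to 8097 CPM (median 1669) against 7494 to 17533 CPM (median 8481), where the spread within the high-score set was wide (log2 fold change -2.17, SE 0.55, adjusted p = 0.0209). Among the surfactant proteins Sftpd fell (log2 fold change -0.77, SE 0.17, adjusted p = 0.00945). Sftpc, the most abundant, did not pass the test, at 20919 to 126901 CPM (median 98483) in high-score and 102481 to 160994 CPM (median 121450.0) in low-score tumours (log2 fold change -0.61, SE 0.33, adjusted p = 0.247). Sftpa1 did not pass either, with a log2 difference of -1.06 (SE 0.36, adjusted p = 0.0652) and the lowest high-score tumour, tumour 1 of CE467, at 2269 CPM. AT2 transcripts were thus abundant in both sets. Tumours are bulk samples here, so fewer AT2-like cells and less of each RNA per cell cannot be told apart. Nkx2-1, the transcription factor of lung identity, stood at 184 to 445 CPM (median 394) against 356 to 448 CPM (median 409.7) (log2 fold change -0.23, SE 0.17, adjusted p = 0.411).

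Enzymes of fatty acid synthesis fell with them. Of 13 listed genes 11 fell and 1 rose, with a median log2 fold change of -0.95, and in 7 the sets did not overlap. Scd1 and Fasn stand in the AT2 list too, so the lists are not independent. The 1 that rose was Acsl3, an acyl-CoA synthetase (log2 fold change 0.73, SE 0.19, adjusted p = 0.0227). Elovl1, which elongates very long chain fatty acids (ENSMUSG00000006390.15; GRCm38 chromosome 4, 118428093 to 118432953), had the smallest p of the list. It stood at 395 to 892 CPM (median 568) in high-score tumours and 2183 to 3800.2 CPM (median 3244) in low-score tumours, with no overlap, and a log2 difference of -2.35 (SE 0.22, adjusted p = 0.000328). Scd1, the desaturase that makes oleate (ENSMUSG00000037071.2; GRCm38 chromosome 19, 44394455 to 44407879), stood at 132 to 4563 CPM (median 587) in high-score and 9239 to 30165 CPM (median 15052) in low-score tumours. High-score tumours differed among themselves by more than an order of magnitude, and all lay below the low-score set (log2 fold change -4.13, SE 0.73, adjusted p = 0.00405). Acaca, acetyl-CoA carboxylase, ran at 20.6 to 59.8 CPM (median 22.8) against 78.4 to 154 CPM (median 97.9) (log2 fold change -1.80, SE 0.23, adjusted p = 0.000706), and Scd2, another desaturase, at 497 to 779 CPM (median 573) against 1026 to 1889.8 CPM (median 1686) (log2 fold change -1.37, SE 0.17, adjusted p = 0.000706). Fasn, fatty acid synthase, had a log2 difference of -1.12 (SE 0.18, adjusted p = 0.00262), Acly, which supplies cytosolic acetyl-CoA, of -0.71 (SE 0.16, adjusted p = 0.0112), and Srebf1, the transcription factor SREBP-1 that drives these genes, of -0.69 (SE 0.16, adjusted p = 0.0146).

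Genes of cholesterol synthesis fell as well. Of 21 genes 9 fell and 1 rose, and 11 were not called, with a median of -0.65. The rise was that of Ebp, a sterol isomerase (log2 fold change 0.89, SE 0.25, adjusted p = 0.0313). Pmvk, phosphomevalonate kinase, ran at 17.3 to 52.1 CPM (median 31.3) in high-score against 53.2 to 132 CPM (median 111) in low-score tumours (log2 fold change -1.62, SE 0.29, adjusted p = 0.00409), and the sets did not overlap. Insig1, a sterol sensor of the endoplasmic reticulum, had a log2 difference of -0.68 (SE 0.15, adjusted p = 0.0117).

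**Figure D2:**
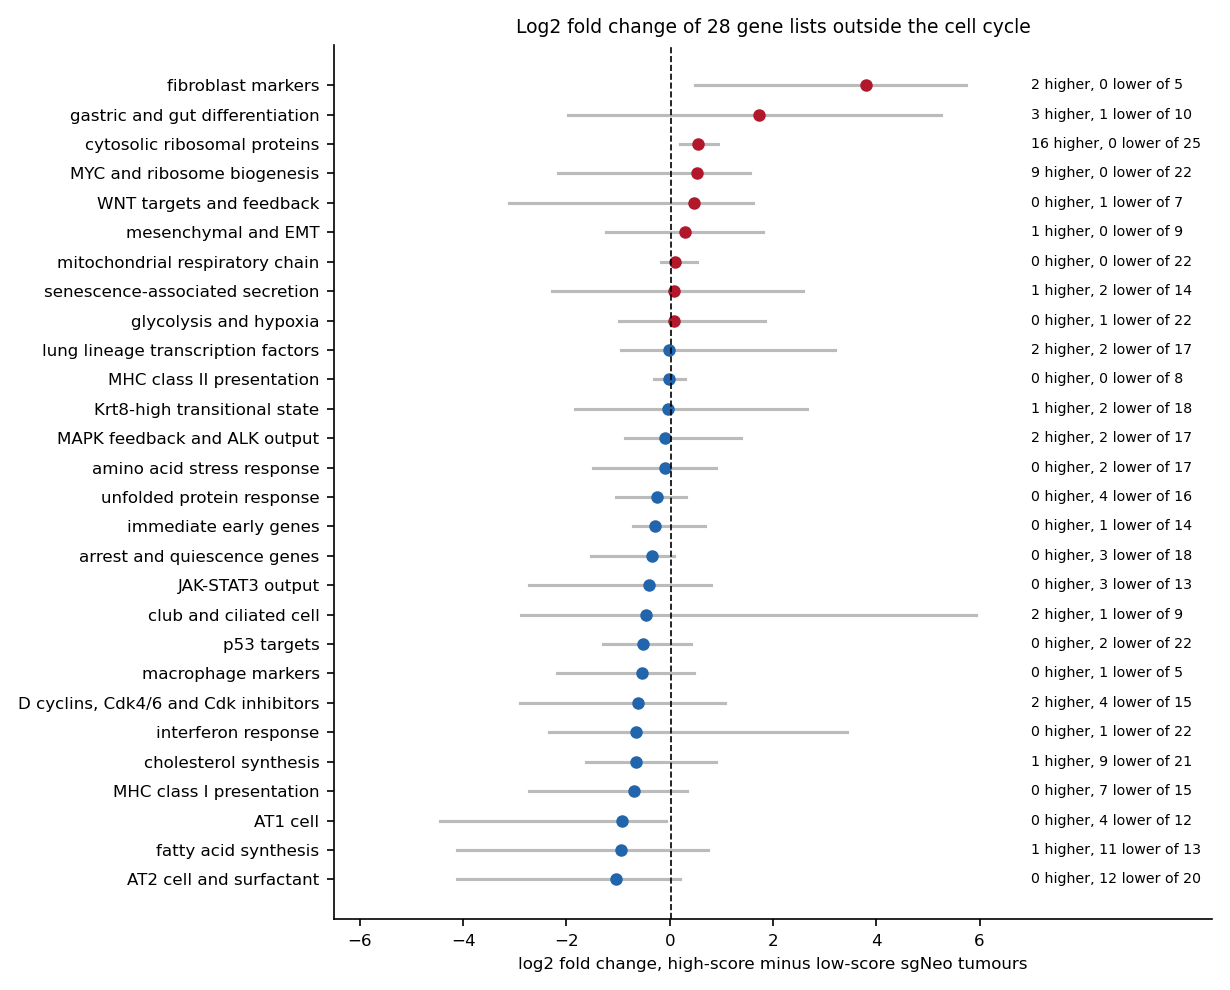
Median log2 fold change, high-score minus low-score sgNeo tumours, of 28 gene lists outside the cell cycle and repair lists with at least 5 genes tested. Dots are medians, lines run from the lowest to the highest member, the dashed line is the median of all genes (0.03), and the counts at right are members called higher or lower. AT2, fatty acid, MHC class I and cholesterol lists have negative medians, and ribosomal protein and ribosome biogenesis lists positive ones. The highest median, of the 5 fibroblast markers tested out of 13 (3.81), is a description and not to be ranked with the rest. Acta2, Col1a1 and Col14a1 have medians of 0.268, 0.345 and 0.329 CPM in low-score tumours. Members this low pass the filter largely through the high-score set. The fibroblast median is 4.86 in Variant 1 and 0.85 in Variant 3.

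MHC class I genes, which show peptides to CD8 T cells, fell in the high-score tumours, whereas no gene of MHC class II was called. Of 15 class I genes 7 fell and 0 rose (median -0.69, 6 with no overlap). H2-K1 (ENSMUSG00000061232.15; GRCm38 chromosome 17, 33996017 to 34000347) stood at 270.0 to 631 CPM (median 367) in high-score and 1025 to 1713 CPM (median 1227) in low-score tumours (log2 fold change -1.67, SE 0.21, adjusted p = 0.000706). B2m, the shared light chain, stood at 116 to 598 CPM (median 339) against 946 to 1861 CPM (median 1202) (log2 fold change -1.76, SE 0.33, adjusted p = 0.00504), and the highest high-score tumour lay below the lowest low-score tumour for both. H2-D1 had -1.41 (SE 0.20, adjusted p = 0.00134) and the peptide-loading factor Tapbp -0.69 (SE 0.12, adjusted p = 0.0035). H2-Q7 and H2-Q6, near-identical class I genes between which reads may be shared, had -2.11 and -2.73 (adjusted p = 0.037 and 0.0269). Of 8 class II genes 0 passed, and Cd74, the invariant chain, stood at 2768 to 6448 CPM (median 5099) against 5529 to 7086 CPM (median 5621) (log2 fold change -0.31, SE 0.19, adjusted p = 0.305). The difference between the class I and class II lists was not tested. Among 22 interferon response genes 1 fell, Ddx58, the sensor RIG-I (log2 fold change -1.04, SE 0.27, adjusted p = 0.0215), and 0 rose. Of these 22 genes 20 had a negative log2 fold change, and the median was -0.65.

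Of 13 listed genes of cytokine signalling through STAT3, 3 fell and 0 rose, and 11 had a negative log2 fold change. Osmr, the oncostatin M receptor, ran at 19.9 to 106 CPM (median 41.6) in high-score and 64.8 to 166 CPM (median 138) in low-score tumours (log2 fold change -1.36, SE 0.25, adjusted p = 0.00422). Lrg1, a STAT3 target, stood at 191 to 880.4 CPM (median 624) against 1192 to 1754 CPM (median 1277), where tumour 1 of CE467 was the lowest of the high-score set (log2 fold change -1.26, SE 0.27, adjusted p = 0.00939). Socs3, the feedback inhibitor, had -0.84 (SE 0.24, adjusted p = 0.0342).

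Genes of the ribosome were higher in high-score tumours. Of 25 cytosolic ribosomal protein genes 16 rose and 0 fell, with a median log2 fold change of 0.54, and of 22 MYC and ribosome biogenesis genes 9 rose and 0 fell, with a median of 0.54. Nop58, of the box C/D small nucleolar particles, stood at 72.4 to 138 CPM (median 95.2) in high-score and 35.6 to 53.5 CPM (median 41.8) in low-score tumours, with no overlap (log2 fold change 1.21, SE 0.18, adjusted p = 0.0018). Its partner Nop56 had 0.84 (SE 0.16, adjusted p = 0.00549). Npm1 and Ncl, the abundant nucleolar proteins, ran at 211 to 393 CPM (median 301) and 323 to 534 CPM (median 408) in high-score tumours, against 137 to 186 CPM (median 162) and 225 to 295 CPM (median 253) in low-score tumours, again with no overlap (adjusted p = 0.00346 and 0.00322). Rpl32, Rpl27, Rps4x and Rpl5 had log2 fold changes of 0.93, 0.78, 0.78 and 0.62, each past the test. Ribosomal protein genes have processed copies in the genome, and how reads were divided among copies is not given in the sources used here.

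The regulators that hold the G1 checkpoint did not move as a block. Among 15 D cyclins, their kinases and inhibitors, 2 rose and 4 fell, while 11 had a negative log2 fold change and the median was -0.62. Cdk4, the kinase partner of D cyclins, stood at 198 to 318 CPM (median 252) in high-score and 101 to 152 CPM (median 117) in low-score tumours, and the sets did not overlap (log2 fold change 1.07, SE 0.13, adjusted p = 0.000642). Rbl1, the pocket protein p107 and itself a cycle-regulated gene, rose by a log2 difference of 0.96 (SE 0.27, adjusted p = 0.03). The cyclins Ccnd1 and Ccnd3 fell, with -0.81 (SE 0.23, adjusted p = 0.0328) and -0.54 (SE 0.15, adjusted p = 0.034). The Cdk4/6 inhibitors Cdkn2c (p18) and Cdkn2b (p15) fell as well. Cdkn2c ran at 2.15 to 9.32 CPM (median 6.72) against 13.0 to 31.4 CPM (median 22.4), with no overlap (log2 fold change -1.73, SE 0.34, adjusted p = 0.00583), and Cdkn2b at 6.18 to 43.7 CPM (median 17.4) against 38.0 to 71.5 CPM (median 57.4) (log2 fold change -1.46, SE 0.37, adjusted p = 0.0206). Cdkn1a (p21), the inhibitor induced by p53, did not pass, with -0.68 (SE 0.39, adjusted p = 0.282), and its spread in the high-score set was wide, at 76.1 to 788 CPM (median 185).

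Some genes of arrest were lower in the high-score tumours, while p53 targets were called lower at near the share of all genes. Of 18 arrest and quiescence genes 3 fell and 0 rose, 16 had a negative log2 fold change, and the median was -0.34. Klf4, an anti-proliferative transcription factor, ran at 6.65 to 20.5 CPM (median 17.8) in high-score against 24.0 to 100.05 CPM (median 36.8) in low-score tumours (log2 fold change -1.52, SE 0.38, adjusted p = 0.0193). The others were Tob1 of the anti-proliferative BTG/TOB family (log2 fold change -0.84, SE 0.20, adjusted p = 0.0164) and Gadd45b, a stress-induced gene (log2 fold change -0.68, SE 0.20, adjusted p = 0.042). Of 22 p53 targets 2 fell and 0 rose, near the 7.25% lower of all genes, and 17 had a negative log2 fold change (median -0.52). The 2 were Sesn2, a stress sensor that restrains mTORC1 (log2 fold change -1.28, SE 0.24, adjusted p = 0.00462), and Trp53inp1 (log2 fold change -1.16, SE 0.27, adjusted p = 0.0146).

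Genes outside AT2 identity were found among the rises. Of 20 genes of gastric and gut differentiation 10 were tested, of which 3 rose and 1 fell. The summed list did not rise, at 743 to 1344 CPM (median 910) in high-score and 964 to 1473 CPM (median 1111) in low-score tumours. Pgc, pepsinogen C, a zymogen of the stomach, stood at 5.74 to 66.1 CPM (median 47.4) in high-score and 0 to 3.01 CPM (median 0.933) in low-score tumours. Tumour 1 of CE467 was the lowest of the high-score set at 5.74 CPM, and still lay above every low-score tumour (log2 fold change 5.24, SE 0.98, adjusted p = 0.00521). Ctse, the gastric protease cathepsin E, ran at 27.9 to 170.3 CPM (median 83.0) against 0.690 to 28.8 CPM (median 5.30) (log2 fold change 3.52, SE 0.69, adjusted p = 0.00644), with overlap at the ends of the sets. Foxa3, a transcription factor of gut and liver endoderm, had 1.44 (SE 0.42, adjusted p = 0.0383). The 1 that fell was Cldn18, a tight junction gene of lung and stomach that also stands in the AT1 list (log2 fold change -0.80, SE 0.24, adjusted p = 0.0445). Among 17 lung lineage transcription factors 2 rose and 2 fell. Sox9, a factor of distal lung progenitors (ENSMUSG00000000567.5; GRCm38 chromosome 11, 112782224 to 112787760), had the largest change: 154 to 632 CPM (median 413) in high-score against 8.50 to 76.8 CPM (median 58.2) in low-score tumours, with no overlap (log2 fold change 3.19, SE 0.42, adjusted p = 0.000779). Id2, of the same progenitors, rose by 1.16 (SE 0.32, adjusted p = 0.03), although tumour 1 of CE467 held 503 CPM, below every low-score tumour. Cebpd and Tfcp2l1 fell (-0.94 and -0.81, adjusted p = 0.0146 and 0.0437).

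Markers of neighbouring alveolar and airway states moved in part. Of 12 genes of the AT1 cell, the flat gas-exchange cell, 4 fell and 0 rose, all 12 had a negative log2 fold change, and the median was -0.93. Aqp5, a water channel, ran at 82.4 to 824 CPM (median 492) in high-score and 1120.5 to 1566 CPM (median 1325) in low-score tumours, without overlap (log2 fold change -1.56, SE 0.39, adjusted p = 0.0193), Emp2 had -0.996 (SE 0.23, adjusted p = 0.0139) and Pdpn -1.16 (SE 0.32, adjusted p = 0.029). Of 18 genes of the Krt8-high transitional state 1 rose and 2 fell. Krt18, a keratin, rose (log2 fold change 0.73, SE 0.19, adjusted p = 0.0221), Nupr1, a stress gene, and Areg, an EGFR ligand, fell (-1.83 and -1.42, adjusted p = 0.0118 and 0.0153), and Krt8 itself stood at 574 to 1473 CPM (median 764) against 585 to 829.5 CPM (median 639.7) (log2 fold change 0.41, SE 0.21, adjusted p = 0.218). Of 9 club and ciliated cell genes 2 rose and 1 fell, Aldh1a1 (log2 fold change 0.95, SE 0.25, adjusted p = 0.0225) and Cckar, described below, and Tppp3 (log2 fold change -1.82, SE 0.56, adjusted p = 0.0447). Epcam, the epithelial adhesion molecule, stood at 525 to 857 CPM (median 568) against 276 to 452 CPM (median 362), with no overlap (log2 fold change 0.83, SE 0.16, adjusted p = 0.00589), and Cdh1, E-cadherin, had -0.62 (SE 0.20, adjusted p = 0.0512).

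**Figure D3:**
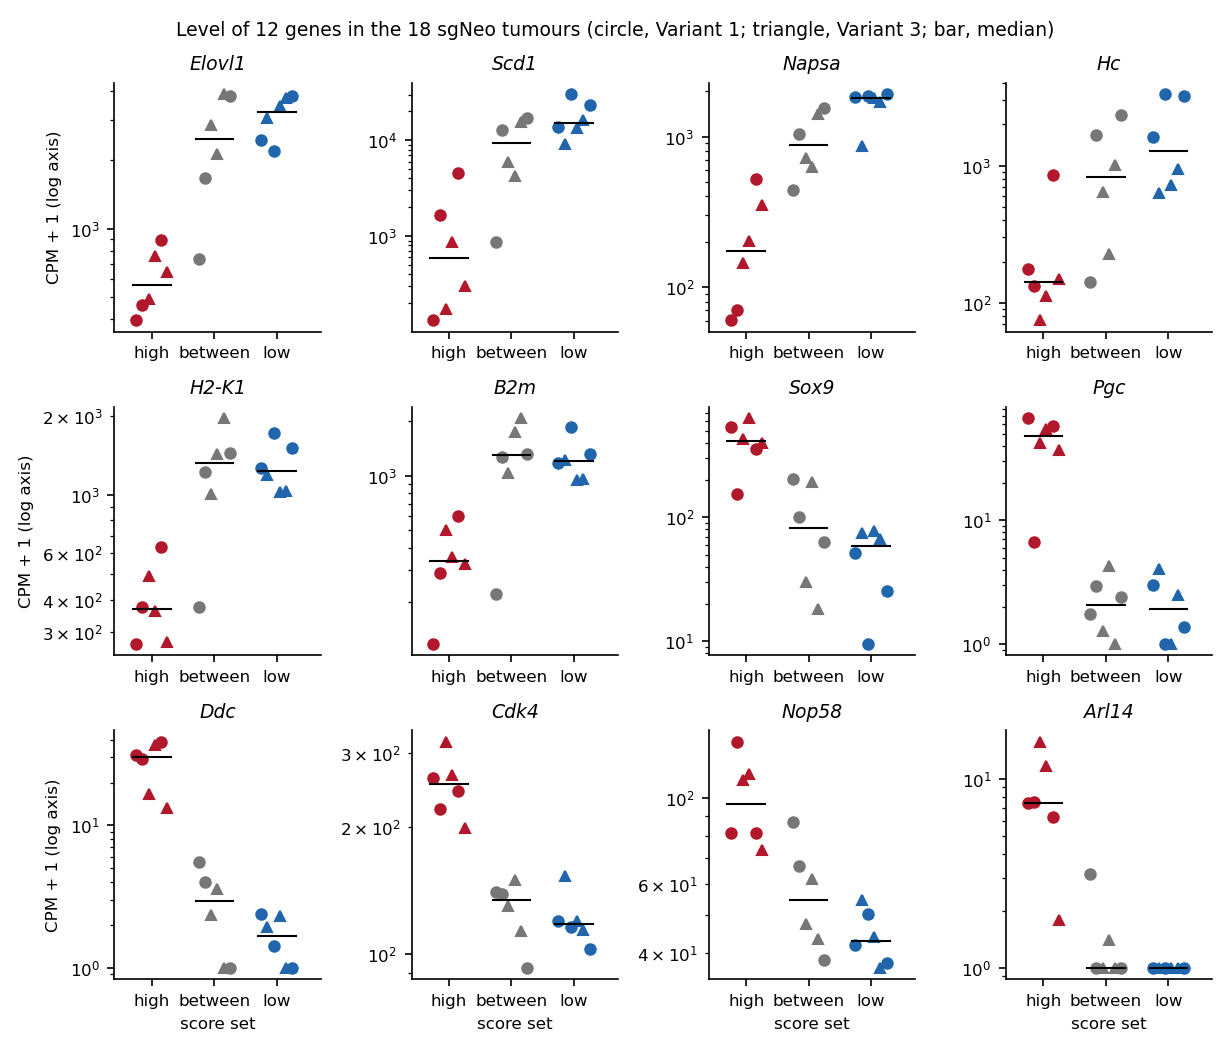
CPM + 1 on a log axis of 12 genes in the 18 sgNeo tumours, in the high-score set, the 6 tumours between the sets and the low-score set (circles Variant 1, triangles Variant 3, bars medians). In 11 of the 12 genes the red and blue points do not overlap, Hc being the exception, and Arl14 had 0 counts in every low-score tumour.

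Ordered by size alone, the 12 largest rises among called genes with at least 5 CPM in the high-score set, outside the cycle lists, were genes almost silent in low-score tumours. Arl14, a small GTPase of the ARF family, held 2139 counts over the high-score set, at 0.794 to 14.7 CPM (median 6.48), and 0 counts in all 6 low-score tumours, so that it was at least 507-fold higher when the low-score set is given 3 counts in all (ENSMUSG00000098207.1; GRCm38 chromosome 3, 69222419 to 69223618). Adamts18, a secreted metalloprotease, ran at 3.57 to 14.6 CPM (median 10.2) in high-score and 0 to 0.483 CPM (median 0.0951) in low-score tumours (log2 fold change 6.18, SE 1.06, adjusted p = 0.00345). Col27a1, a fibrillar collagen, ran at 3.62 to 11.2 CPM (median 7.32) against 0 to 0.764 CPM (median 0) (log2 fold change 6.17, SE 1.08, adjusted p = 0.00369). Gna14, a G protein subunit, ran at 0.927 to 25.0 CPM (median 11.1) against 0 to 0.526 CPM (median 0.349) (log2 fold change 5.26, SE 1.09, adjusted p = 0.00834). Unc5cl and Arhgef3, an exchange factor for RhoA, also separated the sets (adjusted p = 0.0131 and 0.00469), as did Pgc above. Fitted fold changes of genes this close to 0 depend on the prior count and are not bounds. These 12 genes were picked by their level in the high-score set, and pass the filter on low counts largely through it. Their p-values and the separation of their sets are therefore a description. The same applies to other genes named here whose median is near 0 in either set.

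The other 5 rises were those of Cckar, Il17rd, Rasgrp1, Igfbp4 and Col14a1. Cckar, the receptor of cholecystokinin, stood at 0 to 171 CPM (median 71.8) in high-score tumours and 0 to 3.33 CPM (median 0.129) in low-score tumours (log2 fold change 5.93, SE 1.62, adjusted p = 0.029), and the adjusted p reached 0.201 when 1 tumour was left out. Il17rd, an inhibitor of FGF signalling, and Rasgrp1, an exchange factor for RAS, likewise lost the call in some such fit (largest adjusted p = 0.0925 and 0.114). They stood at 0 to 14.0 CPM (median 5.47) and 0.864 to 22.7 CPM (median 6.38) in high-score tumours, against 0 to 0.366 CPM (median 0) and 0 to 1.53 CPM (median 0) in low-score tumours. Igfbp4, which binds insulin-like growth factors, and Col14a1, a fibril-associated collagen, kept it (largest adjusted p = 0.0369 and 0.0433). Col14a1 stood at 3.90 to 213 CPM (median 44.3) against 0 to 6.09 CPM (median 0.329), with 213 CPM in tumour 2 of CE472 and 36.3 CPM in tumour 1 of CE467, the tumour with fibroblast transcripts described below.

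The 12 largest falls included transporters and developmental genes. Slc6a20a, a proline transporter, stood at 0 to 7.92 CPM (median 1.12) in high-score and 48.8 to 91.0 CPM (median 66.1) in low-score tumours (log2 fold change -4.58, SE 1.07, adjusted p = 0.0146), and Slc5a1, the sodium-glucose transporter, at 0 to 8.19 CPM (median 3.15) against 18.7 to 49.1 CPM (median 29.9) (log2 fold change -3.60, SE 0.66, adjusted p = 0.00475). Irx2, an Iroquois homeobox factor, ran at 0 to 13.7 CPM (median 1.76) against 31.5 to 69.6 CPM (median 41.6) (log2 fold change -4.09, SE 0.93, adjusted p = 0.0128). Mrc2, an endocytic collagen receptor, ran at 0 to 8.77 CPM (median 0.610) against 15.5 to 44.3 CPM (median 27.4) (log2 fold change -4.97, SE 1.18, adjusted p = 0.0158). For these genes and Scd1 the sets did not overlap and the call held without any 1 tumour. Corin, a serine protease, kept the call too (log2 fold change -3.85, SE 0.85, adjusted p = 0.0113), though its sets overlapped. Lpar3, a lysophosphatidic acid receptor, Kcnj2, a potassium channel, Man1c1, a mannosidase, Spink5, a protease inhibitor, Aldh1l2, of mitochondrial folate metabolism, and Cyp4b1, a cytochrome P450, passed at adjusted p = 0.0393, 0.0366, 0.0403, 0.0401, 0.0476 and 0.0498, and each lost the call when some 1 tumour was left out.

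Of 17 MAPK feedback and ALK output genes 2 rose and 2 fell. Etv4, an ETS factor induced by ERK, stood at 28.6 to 51.0 CPM (median 34.5) against 8.02 to 23.7 CPM (median 16.1) with no overlap (log2 fold change 1.376, SE 0.24, adjusted p = 0.00399), the phosphatase Dusp4 rose (log2 fold change 0.72, SE 0.21, adjusted p = 0.0346), and Phlda1 fell (log2 fold change -0.86, SE 0.21, adjusted p = 0.0172) with Ccnd1. Alk itself stood at 15.9 to 39.8 CPM (median 19.3) in high-score and 10.4 to 28.9 CPM (median 18.5) in low-score tumours (log2 fold change 0.31, SE 0.18, adjusted p = 0.288), and Eml4 had 0.31 (SE 0.19, adjusted p = 0.293). Setd2, the gene that the other guide targets, stood at 39.5 to 69.5 CPM (median 49.97) against 48.5 to 78.4 CPM (median 55.4) (log2 fold change -0.24, SE 0.15, adjusted p = 0.327). Of 16 genes of the unfolded protein response 4 fell and 0 rose, all 4 of the endoplasmic reticulum, and 12 had a negative log2 fold change. Herpud1, of protein degradation there, had -1.04 (SE 0.21, adjusted p = 0.00649), and Dnajc3, Dnajb9 and Edem1 had -0.83, -0.82 and -0.75, each past the test. Of 7 WNT target and feedback genes tested 1 fell and 0 rose, while 5 had a positive log2 fold change and the median was 0.48. The 1 that fell was Nkd1, a WNT feedback inhibitor, at 0.724 to 92.9 CPM (median 13.6) against 34.0 to 271 CPM (median 188) (log2 fold change -3.11, SE 0.77, adjusted p = 0.0187). Of 14 genes of the senescence-associated secretion 1 rose, Igfbp5 (log2 fold change 2.57, SE 0.55, adjusted p = 0.00999), and 2 fell, among them Igfbp7 (log2 fold change -0.82, SE 0.23, adjusted p = 0.0295). In glycolysis and hypoxia 1 of 22 genes fell, Ankrd37, a hypoxia target (-0.89), in amino acid stress 2 of 17, Slc3a2 (-0.51) and Sesn2, and among immediate early genes 1 of 14, Jund (-0.61). Of 22 respiratory chain genes 0 passed edgeR's test.

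Transcripts of cells that the sort should remove were low and uneven. Red cell and leukocyte markers were too low for any to be tested, and the summed leukocyte list ran from 0 to 3.43 CPM in high-score and from 0 to 0.152 CPM in low-score tumours, with Cd3e, Cd3d, Cd8a and Ms4a1 at 0 in all 12. The summed fibroblast list of 13 markers ran from 11.4 to 573 CPM in high-score tumours (median 85.5) and from 1.03 to 34.6 CPM (median 9.88) in low-score tumours. Of its 5 tested members Acta2 and Col14a1 rose. Tumour 1 of CE467 held the top value, with Col1a1 at 105 CPM and Acta2 at 112 CPM. Without that tumour the genome-wide count was 2242, and Acta2 had a log2 fold change of 1.96 and was no longer called (adjusted p = 0.166). Of 16 macrophage markers 5 were tested and Lyz2, which AT2 cells express too, was called. Adgre1 and Fcgr1 were at 0 in all 12 tumours, but other macrophage markers were not. Chil3, at 0 in 8 of the 12, reached 197 CPM in the high-score set and 4.19 CPM in the low-score set. Mrc1 reached 11.1 and 1.75 CPM. Tumour 1 of CE468, a high-score tumour, had the highest mean log2(CPM + 1) of the macrophage list, 2.73, against at most 1.88 in low-score tumours. Some macrophage RNA in that tumour is thus not excluded. Of 10 neuroendocrine markers 1 was tested and rose, Ddc, DOPA decarboxylase, at 12.4 to 37.7 CPM (median 29.3) against 0 to 1.37 CPM (median 0.684) (log2 fold change 5.21, SE 0.79, adjusted p = 0.00189), while Chga reached 0.35 CPM in 1 high-score tumour. With the mean of the fibroblast list as a covariate 1809 genes were called.

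The 6 tumours between the sets took no part in the contrast, and show how the genes named by it were graded. When the score was fitted as a slope over all 18 tumours, 2336 of 15314 genes (15.3%) passed. A tumour's position was measured over the 1968 called genes outside the cycle lists with at least 5 CPM in the higher set, as the median place between the mean of the low-score tumours (0) and the mean of the high-score tumours (1) in log2(CPM + 1). In order of falling score the 6 stood at 0.829, 0.366, 0.314, 0.404, 0.163 and 0.0191. The first, tumour 4 of CE468, stood at 1.11 over the 999 falls and at 0.608 over the 969 rises. It held 864 CPM of Scd1, 738 of Elovl1, 222 of B2m and 202 of Sox9, within the high-score range, but 0.737 CPM of Pgc and 4.55 of Ddc, below it. Arl14 stood at 0 to 2.13 CPM (median 0) in the 6 tumours.

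Variant 1 and Variant 3 were compared within this contrast, and the tools differed in what they called. A term for the difference of the high-score minus low-score contrast between variants gave 0 genes called by edgeR of 14075, with 1032 at an unadjusted p under 0.05, and DESeq2 called 89. The median log2 fold change of the G2 and mitosis list was 2.41 in Variant 1 and 2.35 in Variant 3, that of the fatty acid list -0.94 and -1.30, and that of the MHC class I list -0.60 and -0.78. With 3 tumours a side, 170 genes were called in Variant 1 alone and 331 in Variant 3 alone.

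The same division was made in sgSetd2 tumours, none of which had a part in choosing the genes. The 6 of highest score (5 Variant 3 and 1 Variant 1) lay between 3.38 and 4.84, and the 6 of lowest score (3 and 3) between 1.77 and 2.72, so that the mean scores differed by 1.80 in sgSetd2 tumours, against 2.76 in sgNeo tumours. Mitotic genes followed the score there too: all 32 genes of G2 and mitosis had a positive log2 fold change, with a median of 1.14. Of 14892 genes 0 (0.0%) passed edgeR's test, 841 (5.65%) had an unadjusted p under 0.05, and DESeq2 called 109. Of the 2106 genes called in sgNeo tumours 2063 were tested in sgSetd2 tumours and 1466 had the same sign there. Genes of G2 and mitosis, which follow the score under both guides, are among them. The share of same-sign genes over all genes was not computed, so the count is a description. The medians of the lists named above were -0.061 for AT2 genes, 0.13 for fatty acid synthesis, -0.029 for MHC class I and 0.095 for ribosomal proteins.

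The contrasts under the 2 guides were then compared by their difference. It passed for 265 of 14276 genes (1.86%). The genes below were chosen for their change in sgNeo tumours, which the difference shares. Elovl1 had a log2 fold change of -2.35 in sgNeo and -0.25 (SE 0.30) in sgSetd2 tumours, a difference of -2.11 (adjusted p = 0.00693). Scd1 had -4.13 in sgNeo and 0.25 (SE 0.41) in sgSetd2 tumours, a difference of -4.38 (adjusted p = 0.0124). For H2-K1 the values were -1.67 and -0.12 (SE 0.18), and the difference -1.56 (adjusted p = 0.00693). Cdk4 had 1.07 in sgNeo and 0.22 (SE 0.11) in sgSetd2 tumours, a difference of 0.85 (adjusted p = 0.00998). Sox9, at 3.19 in sgNeo and 0.62 (SE 0.94) in sgSetd2 tumours, did not pass (difference 2.60, adjusted p = 0.219). Herpud1 had -1.04 in sgNeo and -0.97 (SE 0.23) in sgSetd2 tumours, and Tob1 -0.84 and -0.52 (SE 0.13), with unadjusted p of 0.000947 and 0.00176 by edgeR in sgSetd2 tumours. Neither gene passed there after adjustment, since 0 of 14892 genes did.

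The levels in sgSetd2 tumours are given beside those of sgNeo tumours. Scd1 ran at 12052 to 35556 CPM (median 17890.4) in high-score sgSetd2 tumours and 6077 to 29429 CPM (median 21082) in low-score sgSetd2 tumours, and none of the 18 sgSetd2 tumours was as low as the highest high-score sgNeo tumour. The same held for H2-K1 and B2m, at 1563 to 2682 CPM (median 1892) and 1665 to 4081 CPM (median 2039) in high-score sgSetd2 tumours, against 1637 to 2932 CPM (median 2001) and 2091 to 3072 CPM (median 2501) in low-score ones. Napsa was the other way: 15 of 18 sgSetd2 tumours lay at or below the highest high-score sgNeo tumour, and Napsa ran at 151 to 298 CPM (median 220.1) in high-score and 175 to 618 CPM (median 335) in low-score sgSetd2 tumours. Ddc, Pgc, Sox9 and Cdk4 reached the lowest high-score sgNeo value in 0 of 18 sgSetd2 tumours. The sgSetd2 tumour of highest score, tumour 1 of CE450, had a score of 4.84, above tumour 2 of CE433 (4.57), and stood at 0.244 on the position measure. That measure takes its genes and both its ends from the sgNeo sets. Tumour 2 of CE433 belongs to them and stands near 1 (0.982) by construction, so the 2 positions cannot show an effect of guide. The sgNeo tumours between the sets, which did not define the measure, ran from 0.0191 to 0.829. High-score sgSetd2 tumours lay between 0.0886 and 0.371 on the position measure, and low-score sgSetd2 tumours between -0.176 and 0.452. Score range, variant make-up and guide differ together between these sets and cannot be told apart.

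**Figure D4:**
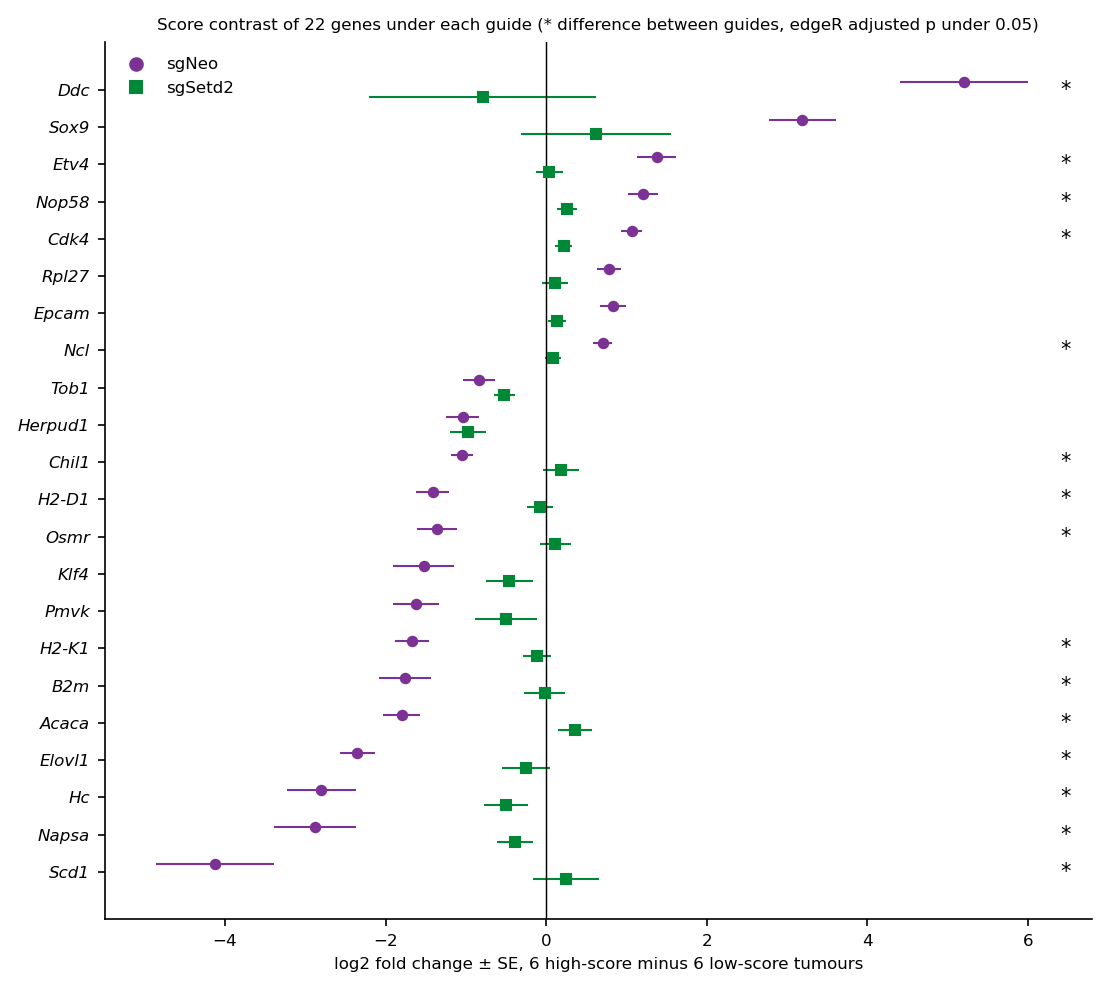
Log2 fold change (points, with SE) of 6 high-score minus 6 low-score tumours for 22 named genes, in sgNeo tumours (purple circles) and sgSetd2 tumours (green squares), with an asterisk where the difference between guides passed edgeR's test at an adjusted p of 0.05. The genes were chosen for their change in sgNeo tumours, and most sgSetd2 values lie nearer 0, Herpud1 and Tob1 being close to their sgNeo values.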

How the data were processed

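The RNA of EGFP-sorted tumour cells was sequenced for 36 lung tumours of mice. It was extracted with a PicoPure kit and made into SMART-Seq libraries for paired NovaSeq reads, per the labels' protocols. The deposited values are raw counts of reads, in 1 table of genes by tumours. Alignment was by STAR 2.5.3a, and the submitters' processing notes also list R 4.2 and DESeq2 1.38.3. How reads were counted, on which strand and with which annotation and build is not given in the sources used here. Without strand, reads of a gene and of its antisense partner cannot be told apart, and near-identical copies may share reads. Of 49585 gene IDs 49326 matched GENCODE mouse release 21 by ID, with the version left aside, and 259 had no symbol.

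The members and the gene lists were chosen with earlier results of these data known. Scores used CPM over total counts and a pseudocount of 1. Tests used edgeR 4.0.16 (R 4.3.3) with filterByExpr by set, TMM scaling, glmQLFit (robust), glmQLFTest and Benjamini-Hochberg adjustment at 0.05 over all genes, with variant as a covariate. An SE is the size of the log2 fold change over the square root of F. Levels are TMM-normalised CPM with factors over the 36 tumours, and n is 6 tumours per set. Groups came from the labels, the labels give no batch or date, and no 2 libraries were identical. Nothing in the labels says that tumours come from separate animals, so p-values measure the spread between tumours. The bound for Arl14 covers counting error only.

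Genes were named by a rule: among called genes outside the cycle and repair lists, with no predicted or clone name and averaging 5 CPM or more in the higher set, the 12 largest rises and the 12 largest falls, then up to 4 members per list by smallest p, and for the cycle and repair lists the 4 of largest mean with no test. A few genes that the rule picks are not reported here. Setd2, Alk and Eml4 served as a check of the labels. Cdkn1a, Ccnd3, Sftpc, Sftpd, Sftpa1, Nkx2-1, Slc34a2, Lamp3, Abca3, Acly, Srebf1, Acsl3, Ebp, H2-Q7, H2-Q6, Slc2a3, Plat, Pthlh, Bmx, Abcg2 and Mycn were chosen after their values were seen, as were the motifs and the position measure. On counts simulated for the contrast of high-score and low-score sgNeo tumours, with 13618 genes and 200 of them changed, edgeR called 31% of genes changed 2-fold and 80% of those changed 4-fold, besides 4 false calls. DESeq2 1.42.0 called 57% and 90%, besides 41 false calls. The spread of the simulated counts was estimated with variant alone in the model. It therefore holds the differences between the sets too, unlike the spread in the fit of the contrast. Alternatives were RLE and upper-quartile scaling, other filters, a minimum log2 fold change of 1, DESeq2, limma 3.58.1 voom with codes as random blocks, codes as fixed blocks, added or dropped covariates, a single variant, and leaving out each tumour or code. The fibroblast list as a covariate was added after seeing the data.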

Additional observations from a re-analysis of the deposited data

Results flagged for a closer look

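In 343 groups of 6 tumours, a gene's CPM or a list's mean in 1 set, 32 held a tumour whose gap to the nearest of the others took more than 0.625 of the range. Chance gives about 1 in 20 such groups where values are normal and groups separate, which these are not: some hold 5 tumours at 0, and all use the same 12 tumours. Tumour 1 of CE467, a high-score tumour, was that tumour in 10 of them. It stood highest for Acta2 (112 CPM), Col1a1 (105 CPM), Trp53inp1 (221 CPM) and the means of log2(CPM + 1) of the fibroblast (4.21), mesenchymal (4.37) and Krt8-high (7.89) lists. It stood lowest for Pgc (5.74 CPM), Id2 (503 CPM), Lrg1 (191 CPM) and the mean of the lung lineage transcription factors (5.75).

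Among the other high-score tumours, tumour 1 of CE468 stood highest for Hc (859 CPM), Lpar3 (6.08 CPM), Tppp3 (6.21 CPM), Spink5 (0.854 CPM) and the macrophage list (mean 2.73). Tumour 2 of CE433 was lowest for Slc2a3 (5.02 CPM) and Prc1 (10.8 CPM). Tumour 1 of CE433 was lowest for Atr (12.7 CPM) and highest for Jund (284 CPM). Klf4 was lowest in tumour 2 of CE472 (6.65 CPM).

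Among low-score tumours, tumour 3 of CE433 was lowest for Napsa (863 CPM), Dnajc3 (276 CPM), Pmvk (53.2 CPM) and the MYC and ribosome biogenesis list (mean 4.68), and highest for Col27a1 (0.764 CPM). Tumour 3 of CE429 was highest for Rasgrp1 (1.53 CPM) and Il17rd (0.366 CPM). Tumour 1 of CE429 was lowest for Plat (0.286 CPM) and highest for the red cell list (mean 0.0919). Unc5cl was highest in tumour 3 of CE468 (0.875 CPM), the immediate early list in tumour 3 of CE467 (mean 8.21), and the G2 and mitosis list was lowest in tumour 4 of CE472 (mean 1.53).

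For 27 of 125 named genes the high-score minus low-score log2 fold change differed between sgNeo and sgSetd2 tumours by edgeR's test of the difference itself (adjusted p between 0.00408 and 0.05), against 265 of all 14276 genes (1.86%). Most named genes were chosen for their change in sgNeo tumours, which is part of the difference tested. The sgNeo value was the lower for 18. Among lipid genes the difference, sgNeo minus sgSetd2, was -4.38 for Scd1, -2.16 for Acaca, -2.11 for Elovl1 and -1.93 for Scd2. Among MHC class I genes it was -1.75 for B2m, -1.56 for H2-K1 and -1.35 for H2-D1. Among AT2 and cytokine response genes it was -2.50 for Napsa, -2.31 for Hc, -1.24 for Chil1, -1.48 for Osmr and -1.38 for Lrg1. The others were Mrc2 (-4.64), Slc6a20a (-4.14), Irx2 (-3.93), Corin (-3.71), Slc5a1 (-3.68) and Cdkn2b (-1.95). The sgNeo value was the higher for 9: Ddc (6.08), Plat (3.89), Aldh1a1 (2.15), Etv4 (1.33), Nop56 (1.14), Nop58 (0.94), Cdk4 (0.85), Npm1 (0.73) and Ncl (0.62).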

How the results depend on the processing

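The 2106 genes called between high-score and low-score sgNeo tumours stayed within 1.5 times that count under RLE and upper-quartile scaling, both other filters, DESeq2, voom, each added covariate and the fit without variant (1533 to 3029). Scaling shifted the median of all genes by -0.0162 (RLE) and 0.0522 (upper quartile) on the log2 scale. The count was 66 for a log2 fold change above 1, 170 in Variant 1 alone and 331 in Variant 3 alone. It ran from 1371 to 2242 when 1 tumour was left out, and was 706 without code CE429 and 1053 without code CE472. With codes as a replicate block 544 genes were called, 511 of them among the 2106. The compared tumours of CE428 are all high-score and those of CE429 all low-score, so under the block these codes add nothing to the estimate of the contrast. Deviations of same-code tumours from the set means had correlations of -0.051 to 0.074, against -0.071 to 0.057 for other pairs, and tumours of 1 code within a set were not compared. Each mean was over the 3 tumours of a variant in a set, and 5 pairs shared a code, so these correlations cannot exclude an effect of code. The codes were not used as pairs above, and whether they mark a shared source was not tested. Under the block 0 ribosomal protein genes were called higher (16 without it), 4 MYC and ribosome biogenesis genes (9), and lower 7 AT2 (12), 5 fatty acid (11) and 5 MHC class I genes (7). The block gave 0 genes in sgSetd2 tumours and 1769, against 2336, for the slope over 18 tumours. Without a filter and with DESeq2, the difference between variants gave 7 and 89 genes (0 in edgeR with the filter), the sgSetd2 contrast 5 and 109 (0), and the difference between guides 152 and 745 (265). Of 134 genes named, 21 were the same under every alternative run, which is not a count of robust calls. A tested gene was the same if it kept its direction and stayed called, or stayed uncalled. The 15 cycle and repair genes had no call to keep. They were the same if the log2 fold change shifted by less than their SD of log2(CPM + 1) in the high-score set. Of the 108 tested and called, the call was lost for 96 at the minimum log2 fold change of 1, 87 in Variant 1 alone, 80 in Variant 3 alone, 63 under the block, 54 without CE429, 5 with DESeq2 and 1 with RLE. The log2 fold change reversed for Setd2 in Variant 1 alone (0.019) and for Nkx2-1 in Variant 3 alone (0.041), neither of them called. The causes were not tested. On simulated counts, whose spread held the differences between the sets too, edgeR missed most 2-fold changes and DESeq2 fewer. A gene not called is not shown to be unchanged.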

Other observations

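Several genes chosen after their values were seen, of which the lists hold Mycn alone, were among those called between high-score and low-score sgNeo tumours. Plat, tissue plasminogen activator, stood at 25.5 to 142 CPM (median 65.4) in high-score and 0.286 to 3.46 CPM (median 2.15) in low-score tumours, with no overlap (log2 fold change 4.95, SE 0.53, adjusted p = 0.000537). Pthlh, the parathyroid hormone-like hormone, stood at 27.9 to 116 CPM (median 51.8) against 0.259 to 6.59 CPM (median 1.27) (log2 fold change 5.08, SE 0.67, adjusted p = 0.000877), and Bmx, a TEC family kinase, at 13.4 to 100.19 CPM (median 44.0) against 0 to 4.90 CPM (median 0.451) (log2 fold change 5.24, SE 1.06, adjusted p = 0.00748). Abcg2, a drug efflux pump, ran at 15.5 to 99.7 CPM (median 46.1) against 0 to 14.4 CPM (median 1.15) (log2 fold change 4.31, SE 1.17, adjusted p = 0.0274), and its call was lost when some 1 tumour was left out (largest adjusted p = 0.0693). Slc2a3, the glucose transporter GLUT3, reached 319 CPM at the median of the high-score set against 2.88 CPM in the low-score set, although tumour 2 of CE433 held 5.02 CPM (log2 fold change 4.99, SE 1.40, adjusted p = 0.0322). Mycn, the N-MYC transcription factor, stood at 32.6 to 79.2 CPM (median 41.4) against 6.47 to 30.9 CPM (median 16.2), with no overlap (log2 fold change 1.55, SE 0.33, adjusted p = 0.00901).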
